A study of Rattus norvegicus with 18 samples.

Results

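Glycine receptors and the plasma membrane transporters of glycine were followed in RNA of the rat VTA (ventral tegmental area), where dopamine neurons of the reward pathway lie in the midbrain. The set has 6 genes, chosen by symbol and not by any measured value, out of 38445 genes in the count files: 4 receptor subunits (Glra1, Glra2, Glra3 and Glrb) and 2 transporters (Slc6a5 and Slc6a9). All 6 were found, and all 6 passed the filter on low counts that left 17637 genes for testing. The 18 adult male Sprague Dawley rats, wild type and 1 to a library, formed 3 groups of 6. Withdrawal rats (numbered 13 to 18) were taken 24 h after the end of a Lieber-DeCarli liquid diet with 9% v/v ethanol. Chronic ethanol rats (7 to 12) had that diet and were taken at 0 h, and control rats (1 to 6) were fed the liquid diet without ethanol. Each diet lasted 15 or 16 days. The labels do not say whether ethanol and control intake was matched or how the VTA was outlined in the dissection.

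Glycine receptors are pentameric chloride channels, in which alpha subunits bind glycine and the beta subunit ties the channel to gephyrin, the scaffold of inhibitory synapses. Glycine released by neurons is cleared by the glial transporter encoded by Slc6a9 (GlyT1), which also sets the glycine available to NMDA receptors, and is taken back into glycinergic terminals by the transporter encoded by Slc6a5 (GlyT2). Glycinergic neurons are concentrated in the brainstem and spinal cord, and glycine receptors are among the channels on which ethanol is known to act directly.

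Libraries held 29.6 to 45.1 M counted fragments (median 38.4 M), so that 3 counts, the limit that a count of 0 allows, equalled 0.0665 to 0.101 CPM (counts scaled to library size with TMM factors), counting error only. Some libraries stood apart by markers of other tissue. Chronic ethanol rat 8 and control rat 5 had summed levels of 68.1 and 87.5 CPM over 10 hindbrain Hox genes, against at most 5.64 CPM in the other 16 rats, with Hoxa2, Hoxa3, Hoxa4 and Hoxa5 at 0 in all 18. Withdrawal rat 13 had Crx, a transcription factor of pineal and retinal cells, at 446 CPM, against at most 0.301 CPM elsewhere. Withdrawal rat 17 went against its tissue label in most dopamine neuron markers, with the dopamine transporter Slc6a3 at 2.56 CPM and the midbrain factor Foxa2 at 0. Th, Slc18a2, Ddc, En1, Pitx3, Drd2 and Ret were also at their lowest in rat 17. Nr4a2 and Lmx1b were lower in rat 8 only, and Aldh1a1 was lower in rats 1, 7, 8 and 13. The sum of these 12 dopamine neuron genes ran from 489.6 to 3239 CPM in withdrawal and from 569 to 3786 CPM in chronic ethanol rats. In control rats it ran from 1320 to 3885 CPM. Aldh1a1 made up 232.5 CPM of the sum of rat 17. That of rat 13 included the highest Ddc of all 18 rats, 414.9 CPM. Every member was therefore also tested without rats 5, 8, 13 and 17.

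None of the glycine genes passed the test between groups. With edgeR's quasi-likelihood test and Benjamini-Hochberg adjustment over all genes, 0 of 6 members passed an adjusted p of 0.05 in withdrawal against control (background 0% of 17637 genes), 0 of 6 in chronic ethanol against control (background 0%) and 0 of 6 in withdrawal against chronic ethanol (background 0%). At an unadjusted p under 0.05 the counts were also 0 of 6 in each, where 9.82%, 5.84% and 15.3% of all tested genes lay. DESeq2 called 0 of 6 members in each comparison, against 45 (0.271%), 43 (0.243%) and 277 (1.62%) of all genes in the same order, and 267 (1.47%) for any difference among the 3 groups. In no comparison did the groups separate fully for any member, as they did for 0.607%, 0.93% and 1.36% of tested genes. The median log2 change of the 6 was -0.06 in withdrawal against control, 0.02 in chronic ethanol against control and -0.05 in withdrawal against chronic ethanol, beside 0.01, -0.00 and 0.02 over all tested genes. The first and second comparisons share their control rats.

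**Figure D1:**
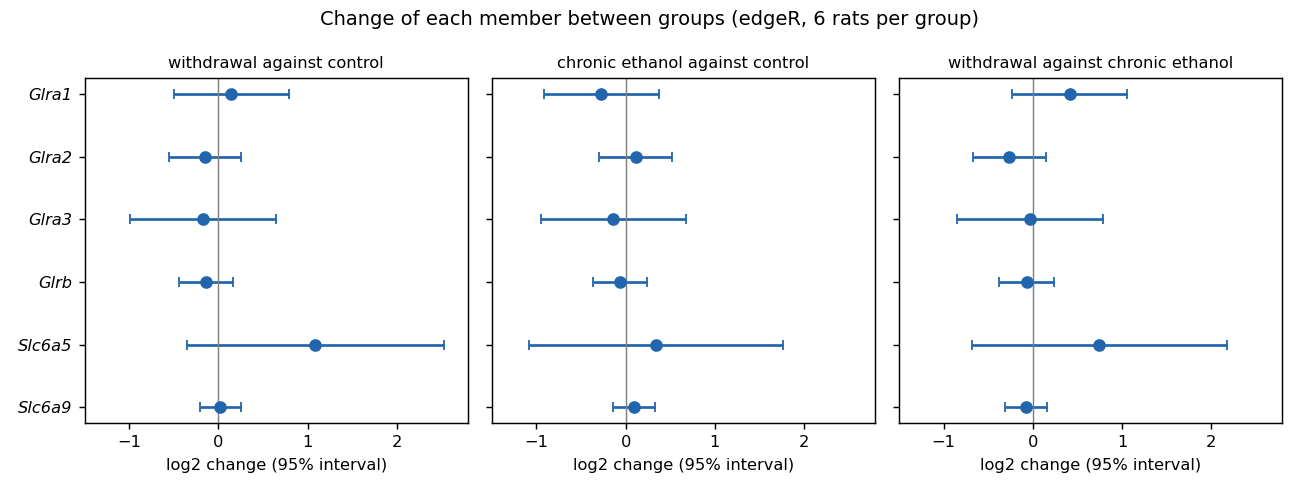
Log2 change of each glycine receptor or transporter gene (rows) in the 3 comparisons (panels), from edgeR over 6 rats per group, with 95% intervals as bars. All 18 intervals include 0, and that of Slc6a5 is the widest in each panel.

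What set the members apart from one another was how far they varied among rats. The biological coefficient of variation, the spread within groups that edgeR estimates beyond counting error, was 0.773 for Slc6a5, 0.455 for Glra3, 0.368 for Glra1, 0.244 for Glra2, 0.181 for Glrb and 0.144 for Slc6a9. Of all tested genes, 98.0% had a lower value than Slc6a5 and 85.8% a lower value than Glra1. For Glrb that share was 49.6%, and for Slc6a9 35.9%. Without rats 5, 8, 13 and 17, the coefficient of variation of CPM over the other 14 rats was still highest for Slc6a5, 48.1%, while that of Glrb, 5.27%, was below that of Slc6a9, 6.59%.

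**Figure D2:**
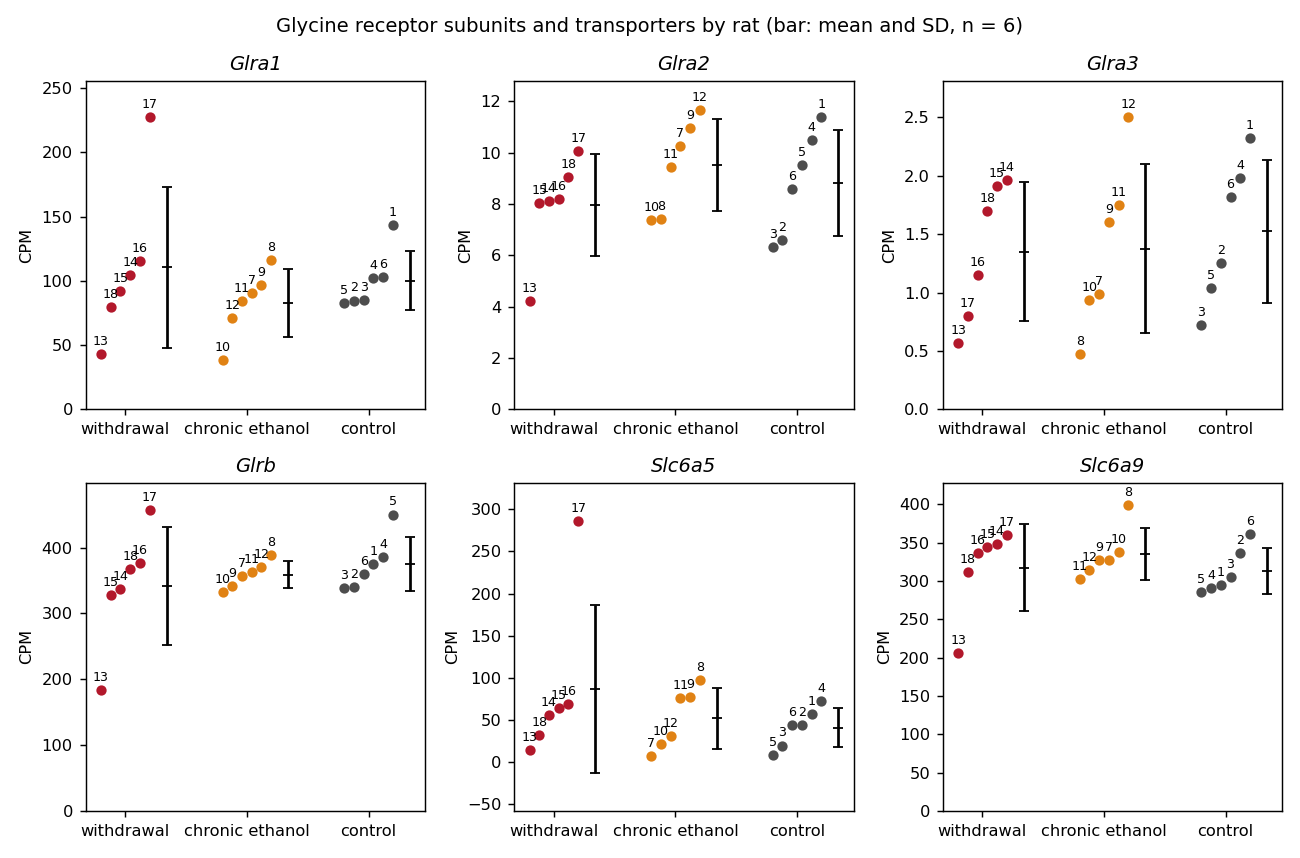
CPM (vertical axes, each with its own scale) of the 6 genes in withdrawal, chronic ethanol and control rats, 1 numbered point per rat in order of level, with the mean and SD of each group (n = 6) as a bar. The groups overlap in every panel, and withdrawal rat 17 lies far above the other rats for Slc6a5 (287 CPM) and Glra1 (227 CPM).

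Glra1 encodes the alpha1 subunit, the main alpha subunit of adult spinal cord and brainstem receptors (gene 25674, chromosome 10, 40851955 to 40954364, minus strand, Rnor_6.0). Its level was 42.9 to 227 CPM in withdrawal (median 98.7), 38.1 to 116.5 CPM in chronic ethanol (median 87.5) and 82.5 to 143 CPM in control rats (median 93.3). Withdrawal rat 17 was the highest of all 18, while chronic ethanol rat 10 and withdrawal rat 13 were the lowest, and the groups overlapped. The means were 110.5 ± 62.5, 82.9 ± 26.6 and 100.1 ± 23.1 CPM in that order (SD, n = 6). The log2 change was 0.14 ± 0.31 (SE) in withdrawal against control (edgeR adjusted p = 0.886, 95% interval -0.50 to 0.79), and -0.20 without rat 17 (adjusted p = 0.782), so that its sign rested on that rat. In chronic ethanol against control it was -0.27 ± 0.31 (adjusted p = 0.999, interval -0.92 to 0.37). In withdrawal against chronic ethanol it was 0.41 ± 0.31 (adjusted p = 0.512, interval -0.23 to 1.06), 0.07 without rat 17 and 0.58 without rat 13 (adjusted p = 0.354, with an unadjusted p under 0.05 in that setting). In bulk tissue, fewer cells of a type and less RNA per cell cannot be told apart, here or for any other member.

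Glra2 encodes the alpha2 subunit, which prevails in the developing brain and persists in parts of the adult forebrain (gene 24397, chromosome X, 30612894 to 30832078, minus strand). It had 4.22 to 10.1 CPM in withdrawal (median 8.15), 7.37 to 11.7 CPM in chronic ethanol (median 9.85) and 6.32 to 11.4 CPM in control rats (median 9.04). Withdrawal rat 13 was the lowest, the other 17 rats lay between 6.32 and 11.7 CPM, and the groups overlapped. The log2 change was -0.15 ± 0.19 in withdrawal against control (edgeR adjusted p = 0.793, interval -0.56 to 0.26), 0.11 ± 0.19 in chronic ethanol against control (adjusted p = 0.999, interval -0.29 to 0.52) and -0.26 ± 0.19 in withdrawal against chronic ethanol (adjusted p = 0.511, interval -0.67 to 0.14). All 3 intervals lay within a log2 change of 1 in either direction. Without rat 13 the change was -0.021 in withdrawal against control and -0.13 in withdrawal against chronic ethanol. With the first index of the library name as a term in the fit it was -0.46 in withdrawal against control, 0.0035 in chronic ethanol against control and -0.47 in withdrawal against chronic ethanol (adjusted p = 0.793, 1.00 and 0.379).

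Glra3 encodes the alpha3 subunit, known from spinal pain pathways and the retina (gene 114516, chromosome 16, 37676959 to 37908221, minus strand). It was the scarcest member in CPM, at 0.567 to 1.97 in withdrawal (median 1.43), 0.471 to 2.51 in chronic ethanol (median 1.30) and 0.725 to 2.33 in control rats (median 1.54), from 19 to 113 fragments a library. Chronic ethanol rat 8 was the lowest and chronic ethanol rat 12 the highest, so that 1 group held both ends. The log2 changes of -0.17 ± 0.39, -0.14 ± 0.39 and -0.03 ± 0.39, for withdrawal against control, chronic ethanol against control and withdrawal against chronic ethanol, were smaller than their errors (edgeR adjusted p = 0.891, 0.999 and 0.974). With the first index as a term they were -1.35, -1.06 and -0.29 in that order (adjusted p = 0.793, 0.778 and 0.769). The first 2 of these rest on chronic ethanol rats 7 and 8, with 38 and 19 fragments, which alone shared an index with control rats.

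Glrb encodes the beta subunit (gene 25456, chromosome 2, 179768040 to 179842612, minus strand). It was abundant, at 183 to 457 CPM in withdrawal (median 352.5) and 332 to 388 CPM in chronic ethanol rats (median 359.7). Control rats had 339 to 450.2 CPM (median 367). Withdrawal rat 13 had the lowest level and withdrawal rat 17 the highest, while the 6 chronic ethanol rats lay within 1.17-fold of one another. The log2 change was -0.13 ± 0.14 in withdrawal against control (edgeR adjusted p = 0.744, interval -0.44 to 0.17) and -0.0067 without rat 13. It was -0.06 ± 0.14 in chronic ethanol against control (adjusted p = 0.999, interval -0.37 to 0.24) and -0.07 ± 0.14 in withdrawal against chronic ethanol (adjusted p = 0.835, interval -0.37 to 0.23).

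Levels of different genes were set side by side per kilobase of annotated exon (FPKM, CPM divided by exon length). Over the 18 rats the median was 96.3 FPKM for Slc6a9, 76.1 for Glrb, 14.2 for Glra1, 5.99 for Slc6a5, 2.47 for Glra2 and 1.10 for Glra3. Slc6a9 lay above Glrb in 17 of 18 rats and Glrb above Glra1 in 18 of 18, by a median ratio of 5.25. Glra1 lay above Slc6a5 and Glra2 above Glra3 in 18 of 18 rats, and Slc6a5 above Glra2 in 16 of 18. The exons of Glra3 in the annotation add up to 1305 bases, against 3401 to 8326 bases for the other members, and fragments from sequence outside annotated exons were not counted.

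Among the alpha subunits, Glra1 made up most of the transcripts in every rat. Its share of the summed FPKM of Glra1, Glra2 and Glra3 was 82.2 ± 5.19% in withdrawal, 76.3 ± 7.63% in chronic ethanol and 81.1 ± 2.54% in control rats (SD, n = 6), and the ranges overlapped (76.3 to 91.1%, 67.9 to 88.1% and 78.0 to 84.9%). Glra2 held 12.0 ± 2.92%, 17.0 ± 4.63% and 13.0 ± 2.03% in the same order, and Glra3 the rest. Chronic ethanol rats 10 and 12 had the lowest Glra1 shares, 67.9% each, in rat 10 through little Glra1 and in rat 12 with the most Glra2 and Glra3 CPM of any rat. Glrb exceeded the sum of the alpha subunits in all 18 rats, by 3.85 ± 0.834 times in withdrawal, 4.90 ± 1.60 times in chronic ethanol and 4.29 ± 0.977 times in control rats. Chronic ethanol rat 10 had the highest ratio, 8.06, and withdrawal rat 17 the lowest, 2.5. These shares combine members and were not tested.

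**Figure D3:**
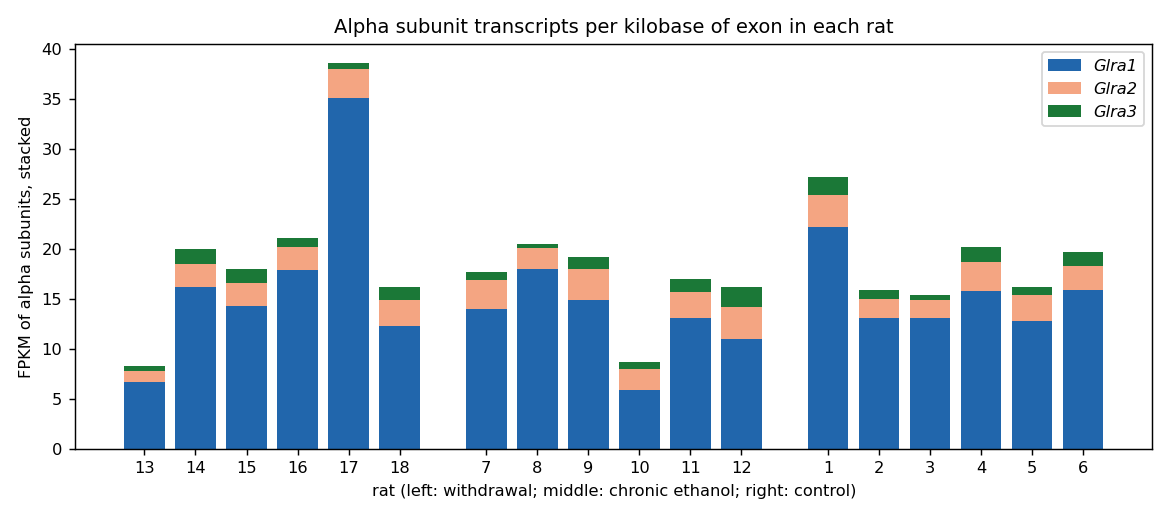
Summed FPKM of Glra1, Glra2 and Glra3 (stacked bars from 0) in each of 18 rats, with withdrawal on the left, chronic ethanol in the middle and control on the right. Glra1 is the largest part of every bar, from 67.9 to 91.1%.

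Slc6a9, the glial transporter GlyT1 (gene 116509, chromosome 5, 136669674 to 136703702, plus strand), had a spread close to that of Glrb. It was 206 to 359.6 CPM in withdrawal (median 340.4), 302 to 399 CPM in chronic ethanol (median 327) and 286 to 362 CPM in control rats (median 300). Apart from rat 13 at 206 CPM, withdrawal rats lay at 312 CPM or above, and the groups overlapped. Rat 13 also had the lowest sum of 8 astrocyte genes, 3147 CPM against at least 4195 CPM in the other rats. It was lowest as well for 6 oligodendrocyte genes (16620 CPM against at least 29690 CPM) and 5 microglia genes (142.9 CPM against at least 172.3 CPM). The part of cell composition in the level of Slc6a9 was not tested. The log2 change was 0.02 ± 0.11 in withdrawal against control (edgeR adjusted p = 0.954, interval -0.21 to 0.26) and 0.12 without rat 13. It was 0.10 ± 0.11 in chronic ethanol against control (adjusted p = 0.999, interval -0.14 to 0.33) and -0.08 ± 0.11 in withdrawal against chronic ethanol (adjusted p = 0.762, interval -0.31 to 0.16).

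Slc6a5, the neuronal transporter GlyT2 (gene 171148, chromosome 1, 105270418 to 105336369, plus strand), spanned a 39.6-fold range over the 18 rats, and a 10.7-fold range without rats 5, 8, 13 and 17. It was 14.1 to 287 CPM in withdrawal (median 59.8), 7.24 to 97.2 CPM in chronic ethanol (median 53.8) and 8.57 to 72.4 CPM in control rats (median 43.7). Withdrawal rat 17 was alone at 287 CPM, with the next withdrawal rat at 69.2 CPM, and each group also held a rat under 15 CPM (13, 7 and 5). The means were 86.9 ± 100.1, 51.8 ± 36.6 and 40.9 ± 23.6 CPM in that order (SD, n = 6). The log2 change in withdrawal against control was 1.09 ± 0.68 (edgeR adjusted p = 0.575, interval -0.35 to 2.53), and 0.20 without rat 17 (adjusted p = 0.917). In withdrawal against chronic ethanol it was 0.74 ± 0.68 (adjusted p = 0.602, interval -0.68 to 2.17), and -0.14 without rat 17, so that rat 17 set both values. In chronic ethanol against control it was 0.34 ± 0.68 (adjusted p = 0.999, interval -1.08 to 1.77), and 0.06 without rat 8. All 3 intervals of Slc6a5 included both no change and a log2 change of 1.

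The promoters of the most variable member and of the 2 steadiest are shown. Their GC content was 54.3% (Slc6a5), 59% (Slc6a9) and 65% (Glrb), beside 52.3% for Glra2, 58% for Glra3 and a median of 51.7% over all promoters. Whether base composition goes with spread was not tested. The sequences run from 250 bases before to 50 bases after the start that the RefSeq table of GRCr8, a later assembly than that of the counts, gives for each gene, which had entries for 5 of the 6 members (not Glra1). The start given for Slc6a5 lies inside the span of the gene in that assembly, so other transcripts of it start upstream of the window. They are written 5′ to 3′ on the strand of the gene, with GC boxes (GGGCGG on either strand) in capitals. Slc6a5 lies at chr1:108781303-108781602 (plus strand), Slc6a9 at chr5:136659826-136660125 (plus strand) and Glrb at chr2:168505565-168505864 (minus strand).
Slc6a5: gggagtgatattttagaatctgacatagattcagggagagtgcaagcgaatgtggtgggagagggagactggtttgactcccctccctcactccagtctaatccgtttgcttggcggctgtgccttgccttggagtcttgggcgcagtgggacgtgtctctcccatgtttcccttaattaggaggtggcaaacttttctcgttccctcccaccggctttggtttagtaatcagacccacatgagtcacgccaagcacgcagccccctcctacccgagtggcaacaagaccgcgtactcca
Slc6a9: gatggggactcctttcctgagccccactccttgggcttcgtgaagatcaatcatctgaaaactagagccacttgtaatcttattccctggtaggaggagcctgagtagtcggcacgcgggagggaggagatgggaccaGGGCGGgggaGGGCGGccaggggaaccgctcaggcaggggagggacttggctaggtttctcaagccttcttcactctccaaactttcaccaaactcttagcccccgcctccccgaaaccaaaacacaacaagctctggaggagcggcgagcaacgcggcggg
Glrb: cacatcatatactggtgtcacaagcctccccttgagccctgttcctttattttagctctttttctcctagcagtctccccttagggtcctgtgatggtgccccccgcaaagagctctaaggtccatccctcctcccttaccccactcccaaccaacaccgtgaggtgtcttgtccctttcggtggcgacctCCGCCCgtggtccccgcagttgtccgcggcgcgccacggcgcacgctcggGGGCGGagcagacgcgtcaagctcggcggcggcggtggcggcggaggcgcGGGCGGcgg
The window of Slc6a5 held 0 GC boxes and 12 CG dinucleotides, that of Slc6a9 2 and 14, and that of Glrb 3 and 28. Glra2 and Glra3 had 1 GC box each, with 9 and 10 CG dinucleotides. Over 33469 rat promoters of that length, 33.1% held a GC box and the median was 7 CG dinucleotides. TATAAA on either strand was found in Glra2 alone (14.2% of all promoters) and the E-box CAGCTG in Glra3 alone (15.1%). The motifs do not overlap one another in these windows, and a match or its lack says nothing here of a factor bound.

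Slc6a5 and Glra1 were each set beside the markers of the tissue dissected. In the rats with the lowest dopamine neuron sums, withdrawal rat 17 (489.6 CPM) and chronic ethanol rat 8 (569 CPM), Slc6a5 was at its highest, 287 and 97.2 CPM. In withdrawal rat 13 (1169 CPM), control rat 1 (1320 CPM) and control rat 5 (1337 CPM), which came next, it was 14.1, 57.4 and 8.57 CPM. Glra1 was 227, 116.5, 42.9, 143 and 82.5 CPM in rats 17, 8, 13, 1 and 5. Its lowest level, 38.1 CPM, was in chronic ethanol rat 10, with a dopamine neuron sum of 3281 CPM. The rats with high hindbrain Hox sums also differed from one another, with Slc6a5 at 97.2 CPM in chronic ethanol rat 8 and 8.57 CPM in control rat 5, and Glra1 at 116.5 and 82.5 CPM. Withdrawal rat 17, with the highest Slc6a5, had a Hox sum of 5.64 CPM. The part of the dissected tissue in these levels was not tested.

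**Figure D4:**
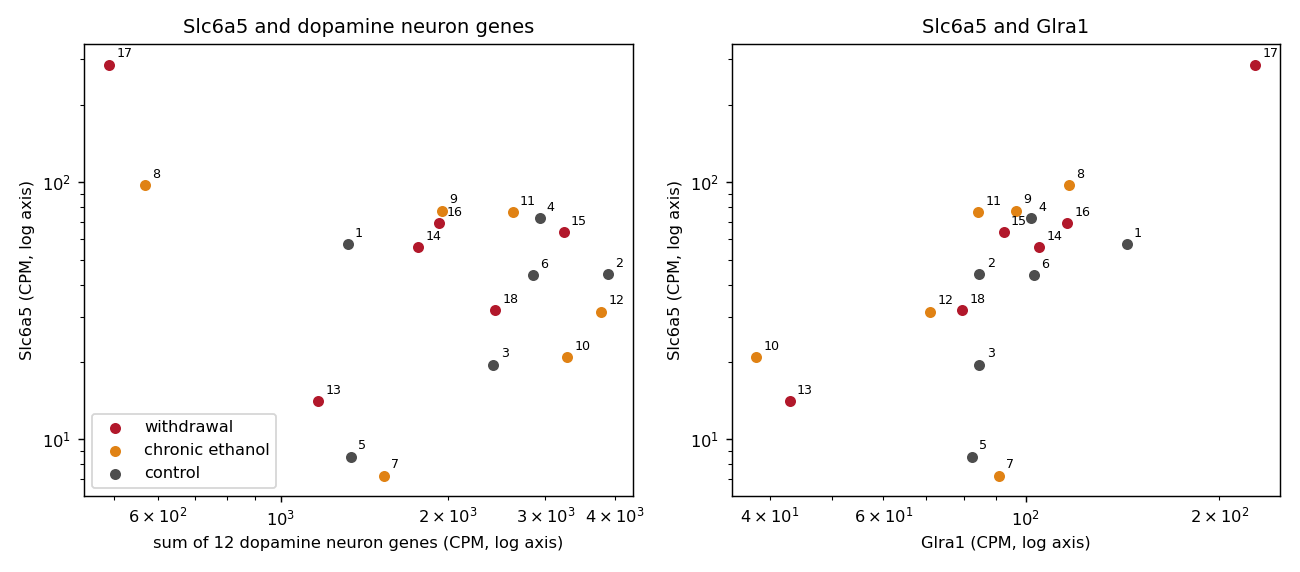
Slc6a5 in CPM (vertical, log axis) against the summed CPM of 12 dopamine neuron genes (left, log axis) and against Glra1 in CPM (right, log axis), 1 numbered point per rat, coloured as withdrawal, chronic ethanol or control. Rat 17 is at the top of both panels, with the lowest dopamine neuron sum (489.6 CPM) and the highest Glra1 (227 CPM).

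The first index of the library name overlapped in part with group, with withdrawal rats 17 and 18 on one index, withdrawal rats 13 to 16 and chronic ethanol rats 9 to 12 on another, and chronic ethanol rats 7 and 8 and control rats 1 to 6 on another still. Within the index shared by 2 chronic ethanol and 6 control rats, the difference in mean log2 CPM was 0.07 for Glra1 (pooled -0.32), 0.02 for Glra2 (0.12), -0.99 for Glra3 (-0.21), -0.0048 for Glrb (-0.06), -0.32 for Slc6a5 (0.17) and 0.22 for Slc6a9 (0.10). Within the index shared by 4 withdrawal and 4 chronic ethanol rats it was 0.28 for Glra1 (pooled 0.32), -0.49 for Glra2 (-0.28), -0.34 for Glra3 (0.02), -0.25 for Glrb (-0.12), -0.04 for Slc6a5 (0.59) and -0.09 for Slc6a9 (-0.09). On the log2 scale, the positive pooled differences of Slc6a5 were thus negative within both indices. Its mean CPM within the index was 52.2 in chronic ethanol against 40.9 in control, and 50.7 in withdrawal against 51.5 in chronic ethanol. The first of these rests on chronic ethanol rats 7 and 8, the lowest and highest of their group for Slc6a5 (7.24 and 97.2 CPM). The second leaves out withdrawal rat 17, without which the fit over the other rats also gave a negative log2 change, -0.14. No index held both withdrawal and control rats, but chronic ethanol rats link them when the fit includes the index. For every member, the comparisons with control in that fit rest on chronic ethanol rats 7 and 8. The log2 change in withdrawal against control was then 0.33 for Slc6a5 (edgeR adjusted p = 0.957), 0.35 for Glra1 (0.884), -0.21 for Glrb (0.856) and 0.16 for Slc6a9 (0.864).

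No other gene that handles glycine, of those listed, passed the test, but with edgeR no gene of any kind did. The lists held 8 genes for anchoring and release, 12 of glycine and serine metabolism and 6 tested of 8 other carriers of glycine. With edgeR (adjusted p) 0 of them passed in any comparison in either direction, as did 0% of all 17637 tested genes. With DESeq2 0 passed of 25 that were given an adjusted p. Of all genes, DESeq2 called 0.271% in withdrawal against control, 0.243% in chronic ethanol against control and 1.62% in withdrawal against chronic ethanol. The counts of 0 are therefore not particular to these lists. At an unadjusted p under 0.05 lay 1, 3 and 0 of them in withdrawal against control, 0, 0 and 0 in chronic ethanol against control, and 2, 3 and 0 in withdrawal against chronic ethanol, where 9.82%, 5.84% and 15.3% of all tested genes lay. In withdrawal against control, 5 of 8, 5 of 12 and 2 of 6 were higher, with median log2 changes of 0.05, -0.01 and -0.08. In chronic ethanol against control, 5 of 8, 6 of 12 and 2 of 6 were higher (medians 0.08, 0.01 and -0.02). In withdrawal against chronic ethanol, 3 of 8, 7 of 12 and 2 of 6 were higher (medians -0.13, 0.05 and -0.10). Dynll1, a dynein light chain that binds gephyrin, had the lowest p of these lists, at 124 ± 5.12 CPM in withdrawal against 137 ± 8.19 CPM in control rats (SD, n = 6; log2 change -0.14 ± 0.05, edgeR adjusted p = 0.403), with 5 of 6 withdrawal rats below every control rat. Psph, the last enzyme of serine synthesis, had 24.0 ± 31.3 CPM in withdrawal against 10.7 ± 0.988 CPM in control rats (SD, n = 6; log2 change 1.17 ± 0.46, adjusted p = 0.453), with rat 13 at 87.8 CPM and the other withdrawal rats at most at 12.0 CPM. Gcat, which breaks down threonine to glycine, had 7.47 ± 0.50 CPM in withdrawal against 8.62 ± 0.634 CPM in control rats (SD, n = 6; log2 change -0.21 ± 0.08, adjusted p = 0.462). In chronic ethanol against control the lowest p of the 3 lists were those of Slc7a10, a carrier of small neutral amino acids (log2 change 0.18 ± 0.12, adjusted p = 0.960), Nlgn2, an adhesion protein of inhibitory synapses (0.17 ± 0.12, adjusted p = 0.969), and Shmt2, a mitochondrial enzyme that makes glycine from serine (-0.10 ± 0.10, adjusted p = 0.999).

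The genes whose levels ran most alike with each member over the 18 libraries were found by Pearson's r of log2 CPM among all tested genes, as a description with no test. All values share library and tissue composition. Slc6a5 ran most alike with Pax2, a transcription factor of inhibitory interneurons in hindbrain and spinal cord (r = 0.82, Spearman's rho = 0.63), Dao, the oxidase of D-amino acids (r = 0.79, rho = 0.77), Alb (r = 0.78), P2ry1 (r = 0.78) and Tecta (r = 0.76). Without rats 7 and 17, the farthest from the median of Slc6a5, r was 0.69 for Pax2 and 0.60 for Dao. Over the 14 libraries without rats 5, 8, 13 and 17 it was 0.84 and 0.80. The ranking over those 14 libraries differed. Sema3a (r = 0.91), Meis1 (r = 0.87), Fndc3a (r = 0.86) and Usp45 (r = 0.84) came before Pax2, and Dao was not among the 5 most alike. Pax2 was at 20.3 CPM in withdrawal rat 17 and at most at 9.98 CPM in the other 17 rats, and Dao at 42.5 CPM against at most 32.1 CPM.

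Glra1 ran most alike with a gene with no symbol (r = 0.89), Chp1 (r = 0.88), Camk1d, a calcium-dependent kinase (r = 0.88), Lin28b (r = 0.87) and Kcnk10, a potassium leak channel (r = 0.87). Without rats 10 and 17 these r fell to between 0.71 and 0.85. Glrb ran with Nxpe3 (r = 0.96), Fgf12 (r = 0.95), Adam22 (r = 0.95) and Ncoa7 (r = 0.94). Over 14 libraries r was 0.68 for Nxpe3 and 0.56 for Adam22, and rat 13 had the lowest Glrb. Glra2 ran with Lrp1b (r = 0.93, and 0.89 over 14 libraries), Erich3 (0.93 and 0.90) and Gria4, an AMPA receptor subunit (0.90 and 0.85). Glra3 ran with Gpr165 (0.93 and 0.84) and St8sia6 (0.90 and 0.85). Slc6a9 ran with Gna12 (0.94 and 0.82), Cadm4, an adhesion protein of myelinating glia (0.93 and 0.81), and Ninj2 (0.93 and 0.66). In the ranking over 14 libraries, none of the genes named for Glra1, Glra2, Glra3, Glrb or Slc6a9 was among the 5 most alike with its member. Between the members themselves, r was 0.67 for Slc6a5 and Glra1 and 0.43 over the 14 libraries, and 0.65 for Glrb and Slc6a9 over 18 libraries but -0.56 over 14.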

How the data were processed

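RNA from the VTA of 18 rats was sequenced as stranded mRNA libraries, per the labels' protocols. The authors deposited raw counts of fragments, obtained by featureCounts 1.5.0 on exons of Rnor_6.0 RefSeq genes, on the reverse strand and without pairs split between chromosomes, per the file headers. STAR 2.5.2a is named in the submitters' processing notes. Genes were named from a RefSeq table of GRCr8 (29322 of 38445 matched). Counts were tested here with edgeR 4.0.16 in R 4.3.3 (TMM factors, filterByExpr, quasi-likelihood F-test with robust fitting off, all 18 libraries in 1 fit, two-sided, Benjamini-Hochberg over 17637 genes, threshold 0.05). CPM used TMM factors, log2 CPM a prior count of 2, and SE came from the log2 change and its F statistic. DESeq2 1.42.0 was an alternative. The method was tested on simulated data. Among all 153 pairs of libraries chi-square per degree of freedom was at least 11.6, above sampling noise. Genes were named by a rule: the 6 members, Glra4, the called or else the 2 lowest-p genes of each pathway list per comparison, of which only some are described, and the 5 genes most alike with each member, not all of which are reported here. The members, lists and rule were chosen with earlier results of these data known. Other settings were RLE factors, other filters, only the groups compared, the first index as a term and each rat left out. A fit without rats 5, 8, 13 and 17 was added after the data were seen.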

Additional observations from a re-analysis of the deposited data

Results flagged for a closer look

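In 5 of 18 sets of 6 values (6 genes in 3 groups), the highest or lowest rat stood apart. Its gap to the nearest neighbour exceeded 0.625 of the range of the group. For normally distributed values chance alone gives this in about 1 group in 20. The rule was applied to the members alone, so the share over all tested genes is not known. The sets share rats, and rats 8, 13 and 17 also stood apart by markers of other genes. Withdrawal rat 17 had Slc6a5 at 287 CPM, with the next withdrawal rat at 69.2 CPM. Withdrawal rat 13, the library with pineal transcripts, was the lowest of its group for Glra2 at 4.22 CPM (next 8.04 CPM) and for Slc6a9 at 206 CPM (next 312 CPM). Chronic ethanol rat 8, with hindbrain Hox transcripts, was the highest of its group for Slc6a9 at 399 CPM (next 338 CPM). Control rat 1 was the highest of its group for Glra1 at 143 CPM (next 103 CPM).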

How the results depend on the processing

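No member passed under any of the 25 alternatives (lowest adjusted p = 0.354), and 8 of the 18 changes of members kept their direction under all of them. Leaving out 1 rat gave log2 changes of -0.40 to 0.039 for Glra3 in chronic ethanol against control. In withdrawal against control it gave -0.20 to 0.31 for Glra1 and -0.018 to 0.12 for Slc6a9. In withdrawal against chronic ethanol it gave -0.21 to 0.22 for Glra3, -0.17 to 0.057 for Glrb, -0.12 to 0.022 for Slc6a9 and -0.14 to 1.02 for Slc6a5. With the first index as a term, Glra1 was 0.050 in chronic ethanol against control and Slc6a5 -0.025 in withdrawal against chronic ethanol. Without rats 5, 8, 13 and 17, Slc6a5 was -0.15 in chronic ethanol against control, Glra1 -0.080 and Glra3 0.049 in withdrawal against control, and Glra3 0.097 and Slc6a9 0.058 in withdrawal against chronic ethanol. The cause was not tested. Over all genes, DESeq2 called 43 genes in chronic ethanol against control, 45 in withdrawal against control, 277 in withdrawal against chronic ethanol and 267 for any difference, where edgeR called 0 (1030, 1732, 2704 and 2023 at an unadjusted p under 0.05). In chronic ethanol against control, edgeR called 2 with only the groups compared (Kif5a and Capn6), 2 with the index (Pmch and Ramp3) and 2 without the 4 rats (Cryzl1 and Capn6). Without those rats it called 2 in withdrawal against chronic ethanol (Neurod2 and a gene with no symbol) and 1 for any difference (Capn6). These names were chosen after their values were seen. Leaving out 1 rat gave 0 to 4 genes in chronic ethanol against control (4 without rat 13), 0 to 2 in withdrawal against control (2 without rat 13), 0 to 24 in withdrawal against chronic ethanol (24 without rat 18, 22 without rat 13 and 12 without rat 11) and 0 to 12 for any difference (12 without rat 13). No paired analysis was possible because rats of different groups share no number. Depth limits Glra3 most (19 to 113 fragments a library).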

Other observations

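Glra4, the remaining alpha subunit gene of the rat (gene 367912, chromosome X, 107416019 to 107447253, minus strand, Rnor_6.0), was near the lower end of what was counted. It had 0.351 to 1.57 CPM in withdrawal, 0.595 to 1.28 CPM in chronic ethanol and 0.582 to 2.24 CPM in control rats, from 13 to 74 fragments a library spread over 15693 bases of annotated exon. Per kilobase its median was 0.0618 FPKM, below Glra3 in 18 of 18 rats, where the annotated exons of Glra3 add up to 1305 bases. In CPM the medians were closer, 0.970 for Glra4 and 1.43 for Glra3. Glra4 was then the higher in rats 3, 7, 8, 10 and 17 and the lower in all others. No comparison of Glra4 passed (edgeR adjusted p from 0.778 to 0.999).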
